A study of Mus musculus with 6 samples.

Results

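Cytoskeletal motors and tubulins were examined in primary fibroblast cultures of mouse embryos, a mixed outgrowth of mesenchymal cells, with and without cyclophilin D. The genes were chosen by symbol among those with a named probe. They are the kinesins (Kif) with their light chains (Klc), the myosins (Myo and Myh), the subunits of cytoplasmic dynein (Dync, Dynl) and dynactin (Dctn), and the tubulins (Tuba, Tubb, Tubg, the last with the gamma-tubulin complex proteins). Kif23 was left out by the same rule. This gave 49 genes with 77 probes, of 7606 named genes with 10653 probes. A further 82 protein-coding genes of these families in RefSeq had no named probe and were not analysed here, among them Myh10, Kif5b, Tuba1b, Tubb3 and Tubb5.

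Illumina bead arrays were hybridised with biotin-labelled total RNA from 3 wild-type and 3 CypD knockout samples, all of C57BL/6 background and grown from E13.5 embryos. CypD, encoded by Ppif, is a peptidyl-prolyl isomerase of the mitochondrial matrix, and the title of the series concerns a role of it in the cell cycle and in movement toward chemokines. The arrays carry the letters A, B and C in each genotype, and the labels do not say whether these stand for separate embryos or cultures. P-values therefore set the difference between genotypes against the spread of these arrays within a genotype, and that spread may be technical only. Values are log2 intensities, and a gene is represented by its brightest probe unless another is named. A gene rose or fell when the limma adjusted p was under 0.05, and fold changes are knockout over wild type.

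Motor proteins turn ATP into steps along filaments. Kinesins mostly walk toward the plus ends of microtubules and dynein, with its cofactor dynactin, toward the minus ends, while myosins pull on actin. Microtubules are built of alpha and beta tubulin, and gamma tubulin in its ring complex starts new ones. In fibroblasts these proteins build the spindle, position organelles and drive the cell edge and its contraction.

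Arrays correlated across probes at 0.992 to 0.994 within groups and at 0.984 to 0.986 between them, and their median raw signals ran from 223 to 251. Ppif read 13.57, 13.70 and 13.62 in wild type A, B and C against 12.25, 12.35 and 12.18 in knockout A, B and C. It thus fell without being lost, and no source used here places its probe relative to the deleted part. Of 11 fibroblast markers 9 were tested, with Col1a1, Col1a2, Fn1 and Col3a1 bright in both groups, while Vim and Dcn were dim by their only named probes. These markers were not stable between the genotypes. Of the 9 tested, 3 rose and 4 fell, with Pdgfra at 1.47 and Col3a1 at 1.13 against S100a4 at -1.62 and Col1a1 at -0.63 (log2 fold changes), and their summed linear intensity was 36463 to 37570 in wild type and 27798 to 32295 in knockout. The part of this shift in the values below was not tested. In these bulk cultures fewer cells of a type and less RNA per cell cannot be told apart.

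As a whole the motor and tubulin genes changed in both directions, with most myosins among those that fell. Of 49 members tested, 11 rose, 13 fell and 25 did not pass, beside 43.6% of all 7605 tested named genes changed, 21.8% upward and 21.8% downward. Changed members made up 49.0%, near that background. The median log2 fold change of the members was 0.09, and that of all tested named genes 0.01. Every probe that could be named varies at least 1.20-fold over these arrays in the authors' processed table, and among all tested probes, named or not, 5423 of 27168 were called (20%). Without knockout B, 7 members rose.

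Most changes were small. The median called change was 1.34-fold among members and 1.36-fold among named genes. Called changes of at least 2-fold were seen in 3 members, Kif1a, Tubb2b and Tuba4a. That is 6.12% of members, beside 6.08% of named genes called at least 2-fold. Tuba4a fell short of that fold without background correction and in the authors' processed table, at log2 fold changes of -0.93 and -0.95. The arrays of the genotypes did not overlap in 29 of the 49 members, beside 56.1% of named genes. At their brightest probe, 14 of the 24 called members passed under every alternative in which that probe was tested.

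**Figure D1:**
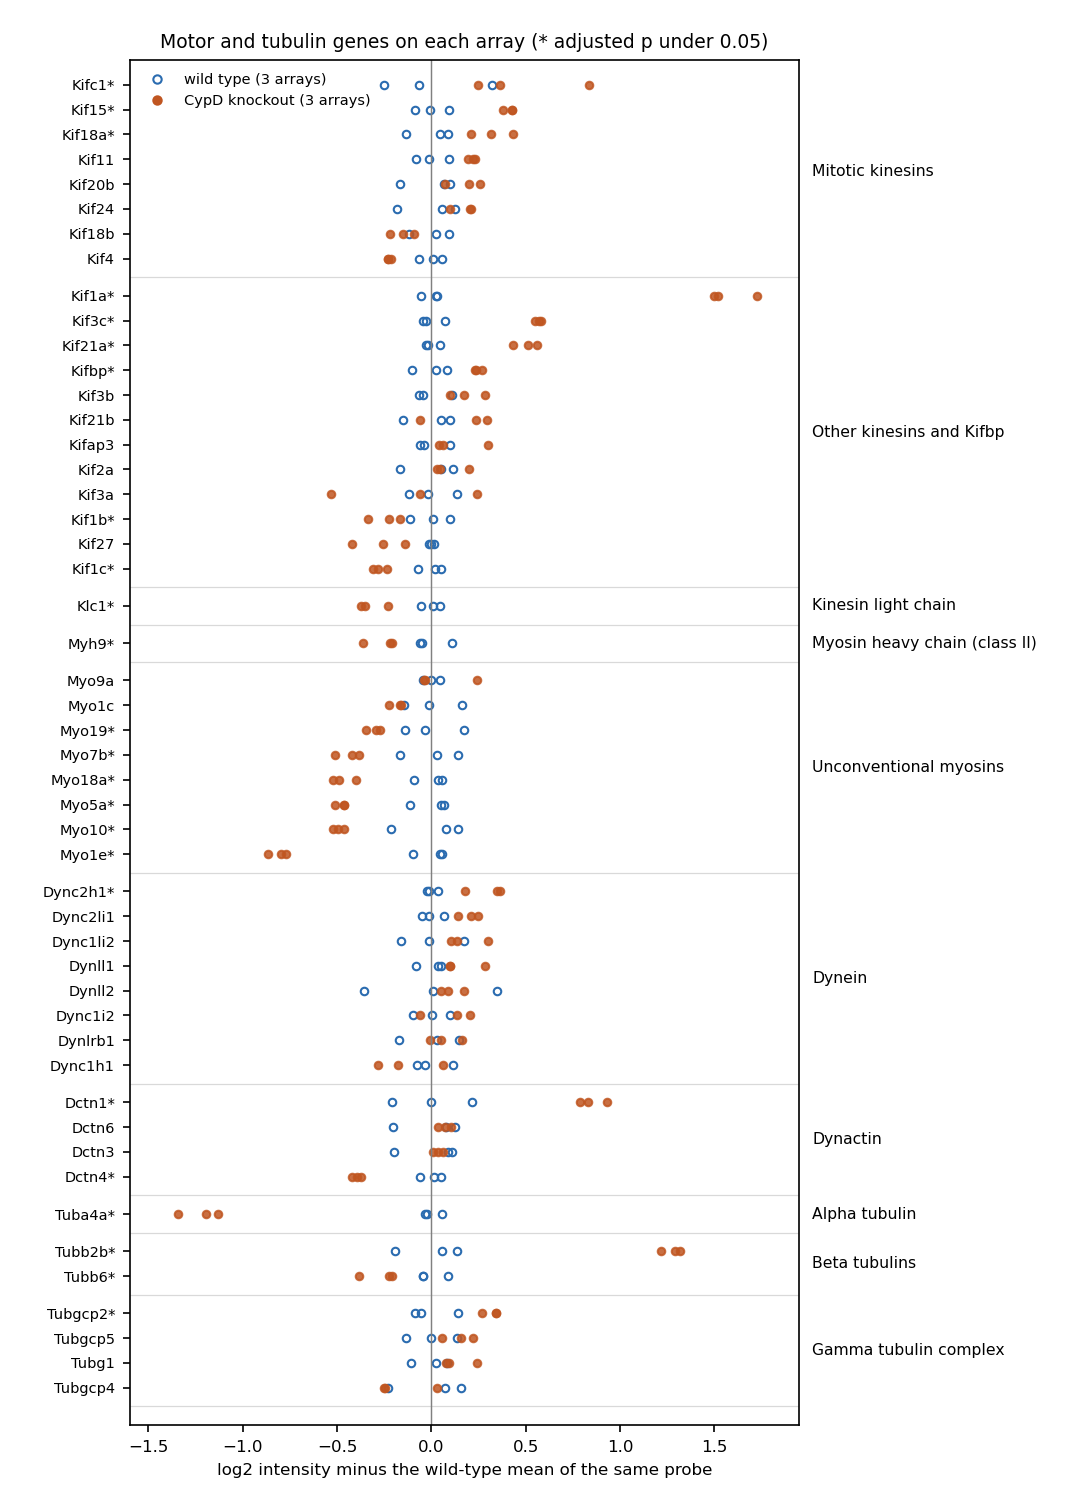
Log2 intensity of each array minus the wild-type mean of the same probe, for the brightest probe of 49 motor and tubulin genes grouped by role; open points are the 3 wild-type arrays, filled points the 3 knockout arrays, and a star marks an adjusted p under 0.05. The filled points of the myosins lie mostly to the left of the open ones, and those of Kif1a, Tubb2b and Tuba4a lie farthest from them.

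Most of the tested myosins fell. Of 9 tested myosin heavy chains, 7 fell, 0 rose and 2 did not pass, beside 21.8% of named genes that fell. Their median log2 fold change was -0.44. Only probes varying at least 1.20-fold over these arrays could be named, so myosins without such a probe were not counted. The named genes set beside them share this limit. At their brightest probes, the calls of Myh9, Myo19 and Myo7b were lost under some alternatives, as given below. No alternative gave a myosin that rose, median scaling and cyclic loess included, and 5 to 7 fell under each.

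Myo1e, a long-tailed class I myosin that works at membrane sites rich in branched actin, changed most among them. It read 11.81, 11.65 and 11.80 in wild type A, B and C against 10.95, 10.89 and 10.98 in knockout A, B and C. The genotypes were well apart, and Myo1e was 1.75-fold lower in knockout (log2 fold change -0.81 ± 0.07, SE, n = 3 against 3; adjusted p = 2.04e-06 by limma). Myo5a, a processive carrier of vesicles and organelles, read 11.95, 11.77 and 11.94 against 11.38, 11.42 and 11.42. The genotypes did not overlap, and Myo5a was 1.39-fold lower (-0.48 ± 0.07, adjusted p = 0.000256). Its dimmer probes gave -0.20 and -0.12 and did not pass.

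Myo10, the motor that travels to the tips of filopodia, read 8.94, 8.88 and 8.59 in wild type and 8.28, 8.34 and 8.31 in knockout. It was 1.41-fold lower (-0.49 ± 0.11, adjusted p = 0.00407), with the groups apart. A second probe passed at -0.48 and the dimmest, at -0.40, did not (adjusted p = 0.0993). Myo18a, a myosin of the Golgi and of actomyosin bundles, read 9.78, 9.63 and 9.76 against 9.33, 9.24 and 9.20. It fell by 0.47 ± 0.09 on the log2 scale (adjusted p = 0.0013).

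Myh9, the heavy chain of the main nonmuscle myosin II of fibroblasts, fell by less. It read 14.35, 14.18 and 14.19 in wild type and 13.88, 14.02 and 14.03 in knockout, with no overlap (-0.26 ± 0.06, adjusted p = 0.00909). The call was lost without knockout A (adjusted p = 0.0514) and without the intensity trend (adjusted p = 0.0698), and its dim second probe gave -0.18 (adjusted p = 0.34). Across its alternatives the adjusted p of Myh9 ran from 0.00319 to 0.34.

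Myo19, the myosin that binds the mitochondrial outer membrane, fell by 0.30 ± 0.09 (adjusted p = 0.0316). This call was lost without any one array but wild type C (adjusted p = 0.0571 to 0.151) and without the intensity trend (adjusted p = 0.0562), and its other probe gave -0.04. Myo7b, a motor of the intestinal brush border, fell by 0.44 ± 0.11 (adjusted p = 0.0123) from a dim wild-type mean of 7.52, a call lost without knockout B or wild type B (adjusted p = 0.0554 and 0.0584). Both remaining myosins did not pass. Myo9a, an unconventional myosin, read 10.80, 10.77 and 10.86 against 10.77, 11.05 and 10.77 (0.06 ± 0.09, adjusted p = 0.753), with overlap. Myo1c, which links membranes to actin, read 9.75, 9.93 and 9.62 against 9.60, 9.60 and 9.54 (-0.19 ± 0.09, adjusted p = 0.21), with the knockout arrays just below the wild type. Another Myo1c probe, annotated to a different transcript, did pass at -0.31 (adjusted p = 0.0276), a call lost without knockout A, knockout C, wild type A or wild type B (adjusted p = 0.0867 to 0.102).

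Partners of the myosins did not all follow. Of 17 genes listed as myosin light chains and their regulators 9 were tested, with a median of 0.05. Of these 1 rose and 3 fell, beside 21.8% of named genes in each direction. Myl9, a regulatory light chain of smooth muscle and contractile fibroblasts, read 10.88, 10.82 and 10.91 in wild type and 8.67, 8.91 and 8.91 in knockout, 4.11-fold lower (adjusted p = 1.23e-09). Its close relative Myl12b rose by 0.45 ± 0.05 (adjusted p = 3.42e-05), with other probes at -0.09 and 0.05 that did not pass. Rock1, a kinase that activates myosin II, fell by 0.52 ± 0.14 (adjusted p = 0.02) although wild type C lay below knockout A, a call lost without the intensity trend (adjusted p = 0.0596) and without knockout B, knockout C, wild type A or wild type B (adjusted p = 0.0798 to 0.0908).

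The smooth muscle markers tested fell as well. Of 8 such markers 4 were tested and 4 fell, Acta2, Tagln, Smtn and Myl9, beside 21.8% of named genes that fell. The Smtn call was lost without the intensity trend and without knockout A or knockout C. That of the main Acta2 probe was lost without the intensity trend. The summed linear intensity of the 4 markers was 66314 to 73551 in wild type and 55164 to 56669 in knockout. Most of that sum is Acta2, whose very bright main probe was at -0.26 while its other probes gave -0.62 to -0.80. The defining markers Cnn1, Myocd and Lmod1 had no named probe. Of 14 skeletal and cardiac muscle markers 2 were tested, with summed intensities of 577 to 705 in wild type and 584 to 635 in knockout. Acta1, dim in both groups, fell (-0.79, adjusted p = 0.00028). Myl4, at means of 8.74 in wild type and 8.90 in knockout, did not pass (0.16). The part of cell composition in the myosin values was not tested.

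**Figure D2:**
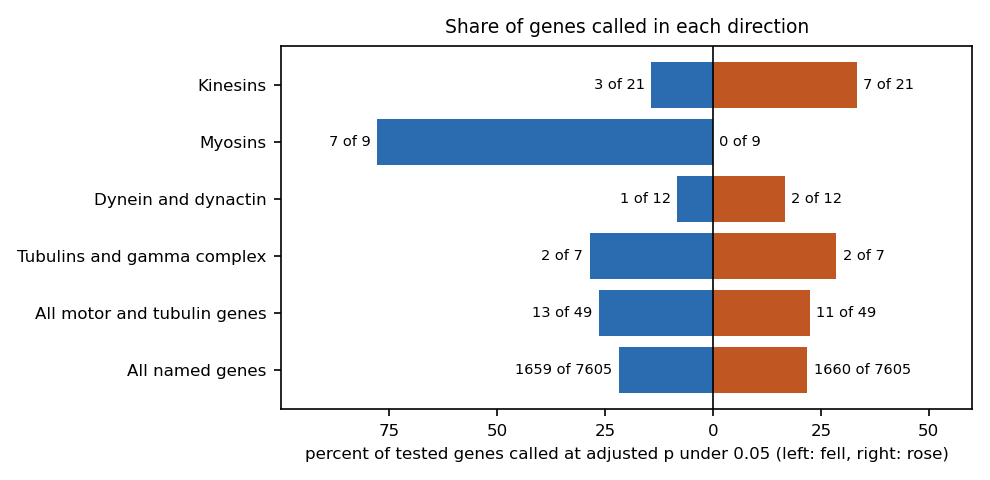
Percent of tested genes called at an adjusted p under 0.05, drawn to the left for genes that fell in knockout and to the right for genes that rose, with counts at the bar ends. Myosins have 7 of 9 falling and 0 rising, kinesins 7 of 21 rising and 3 of 21 falling, and all named genes about equal shares.

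Kinesins changed in both directions. Of 21 kinesin genes, light chain and Kifbp included, 7 rose, 3 fell and 11 did not pass, beside 21.8% of named genes in each direction, with a median of 0.17. The counts depended on the scaling and on single arrays. With median scaling 5 rose and 4 fell. Without knockout B 4 rose, and 1 fell without knockout A, knockout B or wild type B.

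Kif1a, an anterograde motor for synaptic vesicle precursors in neurons, had the largest fold change of the members with this background correction. It read 6.89, 6.97 and 6.98 in wild type A, B and C against 8.68, 8.47 and 8.45 in knockout A, B and C. The groups were far apart, and the gene rose a measured 2.99-fold (1.58 ± 0.10, adjusted p = 6.97e-08). Its wild-type mean lay at the 42.9th percentile of all probes, a range in which signal and background cannot be told apart, so the fold is uncertain. In the authors' processed table the log2 fold change of Kif1a was 1.11 and that of Tubb2b 1.28, and without background correction they were 1.09 and 1.27, so there Tubb2b ranked first.

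The relatives of Kif1a went the other way. Kif1b, which carries mitochondria and vesicles, read 12.52, 12.73 and 12.64 in wild type and 12.40, 12.29 and 12.46 in knockout. It fell by 0.24 ± 0.07 (adjusted p = 0.0315), a call lost without the intensity trend (adjusted p = 0.101) and without knockout A, knockout B or wild type B (adjusted p = 0.07, 0.148 and 0.129). Its other probes gave -0.39, which passed but was lost under 5 alternatives (adjusted p = 0.0679 to 0.156), and -0.33, which did not pass. Kif1c, a fast vesicle motor, fell by 0.28 ± 0.09 (adjusted p = 0.0411) from 9.06, 9.03 and 8.94 to 8.73, 8.77 and 8.70. That call was lost without any one array but wild type C (adjusted p = 0.0784 to 0.134), with no filter (adjusted p = 0.0683) and with the replicate letter as a block (adjusted p = 0.0593).

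Within the heterotrimeric kinesin of cilia and membrane transport, Kif3c rose and its partners did not pass. Kif3c, a motor subunit that pairs with Kif3a, read 11.03, 10.93 and 10.91 in wild type and 11.52, 11.54 and 11.50 in knockout. The groups did not overlap, and the change was 1.48-fold (0.57 ± 0.07, adjusted p = 4.47e-05), with 0.41 by its other probe (adjusted p = 0.0126; 0.0568 without wild type B). Kif3a and Kif3b form the more widely used motor pair. Kif3a read 11.49, 11.34 and 11.23 against 11.60, 11.29 and 10.82 (-0.12 ± 0.15), so its knockout arrays spanned all of the wild-type range, and Kif3b was at 0.18 ± 0.09. Kifap3, the subunit that binds cargo, read 11.54, 11.52 and 11.67 against 11.88, 11.62 and 11.64, with overlap (0.13 ± 0.08). Within arrays, Kif3c minus Kif3b was 0.68, 0.76 and 0.72 in wild type and 1.19, 1.13 and 0.99 in knockout. This difference shifted by 0.38 (exact permutation p = 0.1, two-sided, the smallest that 3 against 3 arrays allow; 0.1 after adjustment over 8 such pairs, chosen after their values were seen).

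Kif21a, which restrains microtubule growth at the cell cortex, rose by 0.50 ± 0.09 (adjusted p = 0.000861), from 8.68, 8.74 and 8.67 to 9.26, 9.13 and 9.21. Kifbp, a binding partner of kinesins and no motor itself, rose by 0.25 ± 0.08 (adjusted p = 0.043). That call was lost without knockout A, B or C or wild type A (adjusted p = 0.1 to 0.175), with median scaling, with no filter, without the intensity trend and with the replicate block (adjusted p = 0.0635 to 0.074). Kif2a, a kinesin that takes microtubules apart, read 11.91, 11.97 and 11.69 against 12.06, 11.89 and 11.90, with overlap, and did not pass (0.09 ± 0.08). Kif27 and Kif21b, a relative of ciliary signalling and a neuronal kinesin, were dim in both groups and did not pass, at -0.27 ± 0.11 and 0.16 ± 0.12.

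Klc1, the cargo-binding light chain of conventional kinesin, fell by every probe but by unequal amounts. Its brightest probe read 12.69, 12.75 and 12.79 in wild type and 12.39, 12.37 and 12.52 in knockout, a change of -0.32 ± 0.07 (adjusted p = 0.0029). The third brightest read 10.41, 10.37 and 10.51 against 9.33, 9.51 and 9.58, a change of -0.95 ± 0.09 (adjusted p = 2.88e-06). The remaining probes gave -0.25 (adjusted p = 0.0479, a call lost under 9 alternatives at 0.058 to 0.163) and -1.01 (adjusted p = 0.000198). The difference between the brightest and the third brightest probe was 2.28, 2.39 and 2.28 in wild type and 3.06, 2.86 and 2.94 in knockout, without overlap (exact permutation p = 0.1). This pair of probes was chosen after its values were seen. Where these probes lie in the Klc1 transcripts, which are spliced in many ways at their end, is not known from the sources used here.

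**Figure D3:**
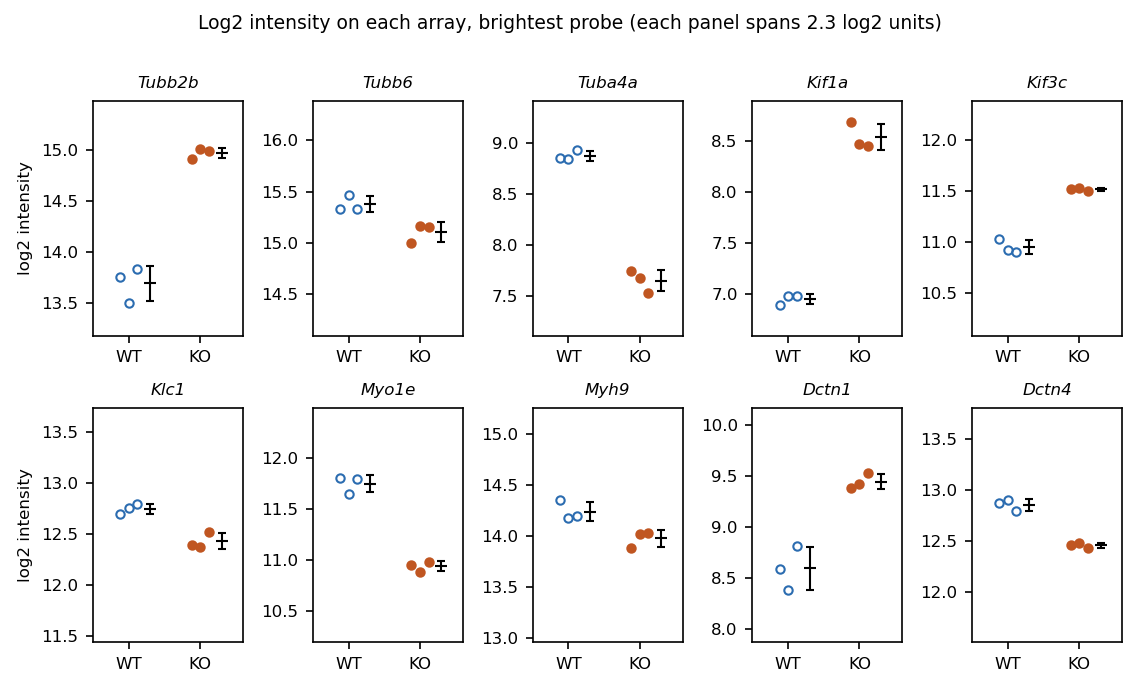
Log2 intensity of the brightest probe of 10 genes on each array, with wild-type arrays A, B and C as open points and knockout arrays as filled points from left to right, and bars giving the mean ± SD of 3 arrays; every panel spans the same height on the log2 scale. Tubb2b, Kif1a, Kif3c and Dctn1 lie higher in knockout and Tubb6, Tuba4a, Klc1, Myo1e, Myh9 and Dctn4 lower, with no overlap in any of the 10.

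Of 8 tested mitotic kinesins 3 rose, 0 fell and 5 did not pass, beside 21.8% of named genes that rose, with a median of 0.20. Without knockout B 1 of the 8 rose. Kif15, which helps to keep spindle poles apart, read 11.44, 11.51 and 11.62 in wild type and 11.90, 11.95 and 11.95 in knockout. It rose 1.33-fold with the groups apart (0.41 ± 0.07, adjusted p = 0.000786), while its dim second probe gave 0.11 and did not pass.

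Kif18a, which aligns chromosomes by damping their movement, rose by 0.32 ± 0.08 (adjusted p = 0.0142), from 11.11, 11.34 and 11.29 to 11.46, 11.68 and 11.57. The call was lost without knockout B or wild type A (adjusted p = 0.0841 and 0.0746). Its dim second probe gave 0.16 and did not pass (adjusted p = 0.52). Kifc1, a minus-end motor that bundles spindle microtubules, read 11.08, 10.50 and 10.69 against 11.12, 11.59 and 11.00. It is the 1 called member whose groups overlapped, since wild type A lay above knockout C. It rose by 0.48 ± 0.15 (adjusted p = 0.0385), a call lost without knockout A, knockout B, wild type B or wild type C (adjusted p = 0.0526 to 0.199), with array weights, with median scaling and without the intensity trend (adjusted p = 0.0539 to 0.0957).

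Kif11, the motor that pushes spindle poles apart, lay at the threshold. It read 11.25, 11.36 and 11.19 in wild type and 11.49, 11.46 and 11.50 in knockout, without overlap, at 0.22 ± 0.07 (adjusted p = 0.0502). It passed under 6 alternatives, cyclic loess and the authors' processed table among them (adjusted p = 0.0401 and 0.0463). Kif4, a chromosome-bound kinesin, was at -0.23 ± 0.08 (adjusted p = 0.0585). It passed as a fall with median scaling (adjusted p = 0.044) and with the 70th percentile filter (adjusted p = 0.0318). Kif20b, a kinesin of late mitosis, read 13.28, 13.31 and 13.05 against 13.29, 13.47 and 13.41, with overlap (0.18 ± 0.08, adjusted p = 0.139). Kif18b, which trims astral microtubules, and Kif24, a centriolar kinesin, were at -0.15 ± 0.08 and 0.17 ± 0.11 and did not pass. Of 14 proliferation markers 6 were tested, of which Plk1 rose and 0 fell. Their summed intensity was 49348 to 54024 in wild type and 53567 to 55833 in knockout, ranges that overlap, and its part in these values was not tested.

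A sequence element was found at the start of 6 of the 8 mitotic kinesins, a group listed by its known role in mitosis. RefSeq promoters (GRCm38.p6, 250 bases before to 50 after the gene start) were at hand for 38 of the 49 members, 9 of them with several, and for all 8 mitotic kinesins. The cell cycle homology region (CHR), an element known from genes that peak in mitosis, has the letters TTTGAA, or TTCAAA when read on the other strand. It was found on either strand in 6 of the 8 mitotic kinesins and in 4 of the 30 other members, and in 18.5% of protein-coding genes. In these 6 a match began within 20 bases of the gene start, as in 0 of the 30 other members and in 2.12% of protein-coding genes. That distance was chosen after the matches were seen.

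The windows around these matches are shown because the element sits at the gene start in kinesins that rose and in kinesins that did not pass. Each reads 5′ to 3′ on the strand of its gene, with the match in capitals.
Kif15: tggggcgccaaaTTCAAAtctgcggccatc
Kifc1: cggaggttgaaaTTCAAAagtggcgggtgt
Kif11: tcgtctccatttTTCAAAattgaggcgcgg
Kif20b: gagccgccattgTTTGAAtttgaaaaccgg
Kif18b: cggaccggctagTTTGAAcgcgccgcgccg
Kif4: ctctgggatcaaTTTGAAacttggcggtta
They lie at chr9:122951050-122951079 (+) for Kif15, chr17:33890615-33890644 (-) for Kifc1, chr19:37376351-37376380 (+) for Kif11, chr19:34922353-34922382 (+) for Kif20b, chr11:102925104-102925133 (-) for Kif18b and chrX:100626072-100626101 (+) for Kif4. The match began 19 bases before the gene start in Kif15 and Kif11. It began 1 base after it in Kifc1, 3 in Kif18b, 7 in Kif20b and 19 in Kif4. Kif15 held another match 234 bases before its start, and in Kif20b a second copy follows the first directly. Among these 6 genes Kif15 and Kifc1 rose and Kif11, Kif20b, Kif18b and Kif4 did not pass, so the element was shared by genes with different values. Kif18a, which rose, and Kif24 held no match in this window.

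In all, 13 motifs were searched on both strands, namely the CHR, the CArG box, the CCAAT box, the GC box GGGCGG, the TATA box TATAAA, the E2F site TTTCCCGC and its variant TTCCCGCC, the M-CAT element CATTCC, part of the RE1 element TTCAGCACC, part of the X-box GTTGCC, the E-box CACGTG, the Hox-Pbx site TGATTGAT and the NRF1 site. The E2F site and its variant can overlap each other. The GC box GGGCGG was found in 27 of the 38 members and in 49.2% of protein-coding genes. It was in 9 of the 10 members that fell, in 16 of the 19 that did not pass and in 2 of the 9 that rose. Such a split was counted for each of the 13 motifs and was not tested. The X-box part was in 28.9% of members and 14.3% of protein-coding genes. The E2F site and its variant were in 0 of the 38 members, and in 1.61% and 3.28% of protein-coding genes. The CArG box is the element bound by serum response factor. It was found in 2 of 38 members, Myo1e and Kif20b, and in 1.76% of protein-coding genes. The Myo1e window is shown because Myo1e fell most among the myosins.
Myo1e: gctgaattctCCATTTATGGacagattgcc
It lies at chr9:70207308-70207337 (+), with the box in capitals beginning 32 bases before the gene start. A match is a description of the letters and shows no binding.

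Tubulins changed in both directions, and 2 of the 3 largest changes among members were theirs. Tubb2b, a beta tubulin prominent in developing neurons, read 13.751, 13.501 and 13.83 in wild type A, B and C against 14.912, 15.013 and 14.986 in knockout A, B and C. The groups lay more than a log2 unit apart, and the gene rose 2.42-fold (1.28 ± 0.07, adjusted p = 2.2e-08). Its other probes rose too, by 0.56, 1.58 and 0.77 (adjusted p = 0.000156, 2.25e-06 and 0.000444). Beta tubulin genes are nearly identical over long stretches, so signal from a close copy such as Tubb2a cannot be told apart here, and the spread among the probes was wider than their errors.

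Tubb6, a beta tubulin of nonneuronal cells, fell. It read 15.33, 15.46 and 15.33 in wild type and 14.99, 15.17 and 15.15 in knockout, without overlap, a change of -0.27 ± 0.06 (adjusted p = 0.00424). The call was lost without the intensity trend (adjusted p = 0.0611). Tubb2b minus Tubb6 within arrays was -1.579, -1.963 and -1.502 in wild type and -0.08, -0.15 and -0.17 in knockout, a shift of 1.55 (exact permutation p = 0.1, the smallest possible). This pair was chosen after its values were seen. With Tubb2b higher and Tubb6 lower on every knockout array, that p was fixed beforehand and adds no evidence.

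Tuba4a, the alpha tubulin gene that lacks an encoded end tyrosine, fell most of all members. It read 8.85, 8.84 and 8.93 in wild type and 7.75, 7.68 and 7.54 in knockout, 2.33-fold lower with the groups far apart (-1.22 ± 0.10, adjusted p = 5.18e-07). Its knockout mean lay at the 65.4th percentile of all probes, where background may hold up the signal. No other alpha tubulin had a named probe.

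In the gamma-tubulin ring, Tubgcp2, a core subunit that holds gamma tubulin, rose by 0.32 ± 0.08 (adjusted p = 0.01), from 11.12, 11.09 and 11.32 to 11.45, 11.52 and 11.52. Tubg1, the main gamma tubulin, read 12.192, 12.132 and 11.996 against 12.18, 12.35 and 12.20, with overlap, and did not pass (0.14 ± 0.07, adjusted p = 0.249). Tubgcp4, another subunit of the ring, read 8.82, 8.91 and 8.52 against 8.51, 8.50 and 8.78, with overlap (-0.16 ± 0.12). Neither it nor Tubgcp5, a further subunit, at 0.14 ± 0.10, passed.

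The few markers of neurons that were tested did not rise beside Tubb2b and Kif1a. Of 12 such markers 4 were tested, of which 0 rose and 2 fell, Stmn2 and Uchl1, beside 21.8% of named genes in each direction. Gap43, at means of 8.09 in wild type and 7.84 in knockout, and Dcx, dim at 7.46 and 7.31, did not pass. The summed intensity of the 4 markers was 4144 to 4366 in wild type, most of it from Stmn2, and 1212 to 1297 in knockout. Snap25, Syt1, Elavl3 and the neurofilament genes had no named probe. The part of cell composition in the Tubb2b and Kif1a values was not tested.

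Dynein subunits mostly did not pass. Of 8 tested, 1 rose, 0 fell and 7 did not pass, beside 21.8% of named genes in each direction. Dync2h1, the heavy chain of the dynein that returns cargo from the tip of cilia, read 9.59, 9.54 and 9.53 in wild type and 9.73, 9.92 and 9.90 in knockout. It rose by 0.30 ± 0.09 without overlap (adjusted p = 0.0249), and by 0.33 at its other probe (adjusted p = 0.0131). The first of these calls was lost without knockout B, knockout C, wild type A or wild type B (adjusted p = 0.053 to 0.106), and the second without knockout B or knockout C (adjusted p = 0.0557 and 0.0527). Its light intermediate chain Dync2li1 was at 0.20 ± 0.08 (adjusted p = 0.084). Of 8 markers of ciliated cells 1 was tested, Dnah11, with summed intensities of 3639 to 3759 in wild type and 3006 to 3271 in knockout.

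Dync1h1, the heavy chain of the main cytoplasmic dynein, read 10.81, 10.62 and 10.67 against 10.76, 10.42 and 10.53, with overlap (-0.13 ± 0.10, adjusted p = 0.421). The light chain Dynll1, a hub shared with many other complexes, read 15.06, 15.05 and 14.93 against 15.30, 15.12 and 15.12. It did not pass at this probe (0.16 ± 0.06, adjusted p = 0.0788), did pass with the replicate letter as a block (adjusted p = 0.0496), and rose at its second probe (0.26, adjusted p = 0.0114). That last call was lost with median scaling, without the intensity trend and without knockout C or wild type A (adjusted p = 0.0538 to 0.0665). The intermediate chain Dync1i2, which docks dynactin, read 14.20, 14.39 and 14.29 against 14.50, 14.43 and 14.23, with overlap (0.09 ± 0.07). Dync1li2, Dynll2 and Dynlrb1, a light intermediate chain and light chains, were at 0.18 ± 0.09, 0.10 ± 0.14 and 0.07 ± 0.08.

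Dynactin subunits went apart. Dctn1, the large arm that grips both dynein and the microtubule, read 8.59, 8.38 and 8.81 in wild type and 9.38, 9.42 and 9.52 in knockout. Every knockout array was higher, and Dctn1 rose 1.80-fold (0.85 ± 0.11, adjusted p = 6.4e-05). Dctn4, a subunit of the pointed-end complex, read 12.87, 12.91 and 12.80 against 12.46, 12.49 and 12.44 and was 1.32-fold lower, again without overlap (-0.40 ± 0.06, adjusted p = 0.000309). Dctn1 minus Dctn4 shifted by 1.24 within arrays (exact permutation p = 0.1). This pair was chosen after its values were seen. With Dctn1 higher and Dctn4 lower on every knockout array, that p was fixed beforehand and adds no evidence. Dctn3, of the shoulder, read 11.98, 12.29 and 12.27 against 12.18, 12.24 and 12.21 (0.03 ± 0.08). Dctn6, of the pointed end, read 11.49, 11.21 and 11.54 against 11.52, 11.48 and 11.45 (0.07 ± 0.09). In both the groups overlapped and the test was not passed. Over dynein and dynactin together 2 of 12 rose and 1 fell, beside 21.8% of named genes in each direction. Without knockout B, knockout C, wild type A or wild type B, 1 rose.

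**Figure D4:**
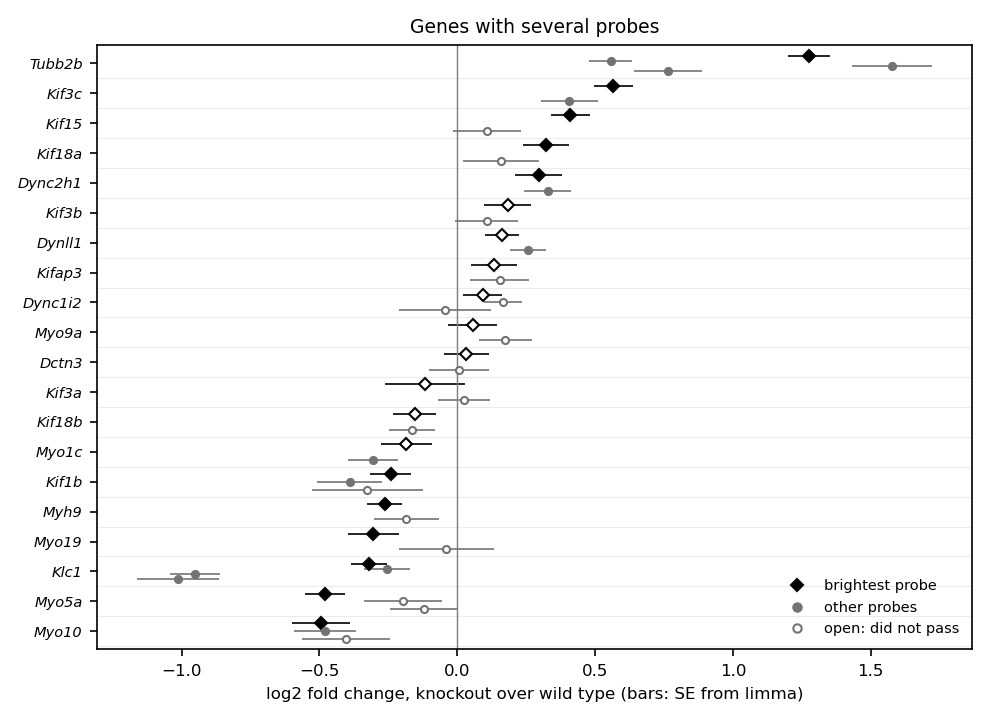
Log2 fold change of every probe of the 20 genes with several probes, knockout over wild type, with bars of ± 1 SE; diamonds are the brightest probe, circles the others, and open symbols did not pass. Tubb2b and Klc1 have the widest spread among their probes, and no gene has probes called in both directions.

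Probes of one gene were compared where a gene had several. Where they lie in the transcripts, and whether they overlap, is not known from the sources used here. Of the 20 members with several tested probes, 4 had all probes called, Tubb2b, Klc1, Kif3c and Dync2h1. In 9 some were called and others were not, and in 7 none was. Over all 77 member probes 36 were called, beside 42.1% of named probes. In 0 of them were probes called both up and down, and in 2 the estimates had both signs, Kif3a and Dync1i2, none of which passed.

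Genes that work with the motors and tubulins changed in both directions. Of 94 genes listed as partners of the motors and tubulins, 54 were tested, of which 9 rose, 12 fell and 33 did not pass (38.9% changed), beside 43.6% changed among named genes. Without wild type C 14 rose. Among 15 tested adaptors and regulators of motors 5 rose and 3 fell, beside 21.8% of named genes in each direction. Fez1, an adaptor that couples kinesin to vesicles, rose from 7.23, 6.92 and 7.17 to 11.08, 11.06 and 10.94, from a dim wild-type level (3.92 ± 0.10, adjusted p = 5.59e-12). Its log2 fold change was 3.23 without background correction and in the authors' processed table. Mapk8ip1, a scaffold that binds kinesin light chains, rose 1.62-fold (0.70 ± 0.09, adjusted p = 3.82e-05), and Hook2, an adaptor of dynein, 1.48-fold (0.56 ± 0.10, adjusted p = 0.000678).

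Among 15 tested proteins that bind microtubules or their plus ends, 3 rose and 3 fell, beside 21.8% of named genes in each direction. Stmn2, which sequesters tubulin in neurons, read 11.65, 11.66 and 11.68 in wild type and 8.92, 8.78 and 8.92 in knockout, 6.91-fold lower. Map6, a protein that stabilises microtubules against cold, fell by 0.63 ± 0.11 (adjusted p = 0.000798), and Mapre2, a plus-end tracker, by 0.50 ± 0.06 (adjusted p = 5.21e-05). Among 15 tested genes of tubulin folding and modification 0 rose and 3 fell (20%), near the 21.8% of named genes that fell. Ttll1, a tubulin polyglutamylase, fell by 0.61 ± 0.09 (adjusted p = 0.000245) and Ttll12, a relative of it, by 0.45 ± 0.07 (adjusted p = 0.00031). Further probes of Ttll1 gave -0.38 (adjusted p = 0.0471) and -0.28, which did not pass (adjusted p = 0.179), and that of Ttll12 passed at -0.53. Spast, which severs microtubules, fell by 0.25 ± 0.07 (adjusted p = 0.0233), a call lost without the intensity trend (adjusted p = 0.0643) and without knockout C or wild type A (adjusted p = 0.109 and 0.0942). The other Spast probe gave -0.27 and did not pass (adjusted p = 0.158).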

How the data were processed

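The authors deposited 1 table of linear probe intensity per array, per the file headers, with 45281 probes, and 1 processed intensity table for the series. BeadStudio 3.0 is named in the submitters' processing notes. How its background was treated is not stated there. The processed values were linear and a median 0.989 times the quantile-normalized scanner values, with array medians of 736 to 741 and no gene centring. They listed 12534 probes, each varying at least 1.20-fold, and only these could be named: 10653 had 1 gene symbol, 5 several and 1876 none. Symbols were updated for 10643 through Entrez identifiers in RefSeq (GRCm38.p6), all 77 member probes among them.

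Per-array intensities were corrected with normexp (offset 50), quantile-normalized and taken to log2 with limma 3.58.1 (R 4.3.3). The offset compresses changes of dim probes. Probes above the 40th percentile of mean intensity (27168) were tested with lmFit and eBayes with an intensity trend, two-sided, with Benjamini-Hochberg adjustment over all of them. "Dim" means under the 70th percentile (log2 8.04). Errors of fold changes are limma standard errors. The number of arrays limits the precision. The procedure was tested on simulated data.

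Members and lists were chosen with earlier results of these data known. Values per array were given for up to 4 called members of each role with the largest changes and up to 2 that did not pass, the brightest, for 10 preset genes, and for up to 3 called genes of each partner list; other members and values were added after they were seen. Alternatives were 2 background settings, 2 normalizations, the processed table, 2 filters, no trend, array weights, the replicate block, each array left out, and the probe of highest variance.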

Additional observations from a re-analysis of the deposited data

How the results depend on the processing

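Counts of members that changed stayed within 1.5 times the 24 reported under every alternative with all 6 arrays (18 to 25). Without the intensity trend 1 tubulin fell in place of 2, and 5 partner genes rose in place of 9; the cause was not tested. With 1 array left out, members that rose numbered 7 to 10, kinesins that rose 4 to 7 and kinesins that fell 1 to 3. Dynein and dynactin genes that rose then numbered 1 to 2, and partner genes that rose 7 to 14. Over the fold changes named, 956 values kept their direction and side of the threshold, 57 lost the call and 12 gained it. The other 8 turned sign with no call on either side. Dctn3 was -0.026 with median scaling and Dync1i2 -0.045 by its probe of highest variance; the cause was not tested. With 1 array left out, Dctn3 ran from -0.066 to 0.088, Myo9a from -0.036 to 0.103, Dctn6 from -0.032 to 0.131, Dynll2 from -0.072 to 0.279, Dynlrb1 from -0.019 to 0.139 and Kif3a from -0.297 to 0.090. The replicate letters gave no clear sign of pairing the arrays. Residuals of same-letter arrays correlated at 0.101, -0.0899 and 0.0753, and not every array correlated best with its own letter. With 3 arrays per group this cannot exclude pairing. With the replicate block, 5273 of all probes were called in place of 5423, and 23 members. Kif1a was not tested above the 70th percentile, since its mean lay under it. Signal near the array floor limits Kif1a, Tuba4a, Myo7b and Fez1.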
